A study of Bubalus bubalis with 36 samples.

Results

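Back subcutaneous adipose tissue (BSAT) was compared with omental adipose tissue (OAT) of the same river buffaloes (Bubalus bubalis), using the 6 BSAT and 6 OAT libraries of the 36 RNA sequencing libraries in the series. Members were chosen by the depot name of each library, and libraries that carry the same animal number were paired. The series covers 6 animals with 6 depots each. The other depots are sternum subcutaneous (SSAT), inguinal (IAT), pericardial (PCAT) and perirenal (PRAT) adipose tissue. Animals 1 to 3 are labelled Murrah males and animals 4 to 6 Nili-Ravi females, so by the labels sex and breed cannot be told apart. The sources differ on breed, since the study's animal table lists all 6 as Murrah. The animals were 19 to 21 months old, were slaughtered in the fattening stage, and each gave 1 library of both depots. Each library is bulk tissue, so adipocytes, stroma, vessels and immune cells are measured together.

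Fat under the skin of the back and fat in the omentum, the peritoneal fold that hangs from the stomach, both store triglyceride but arise from different mesoderm. Subcutaneous fat of the trunk lies over derivatives of the somites and body wall, whereas omental fat develops beside the peritoneum, is lined by mesothelium and holds small lymphoid clusters known as milky spots. Transcription factors that set position in the embryo, such as the HOX family, often stay expressed in the stromal cells and adipocytes of a depot in the adult.

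Expression is given as FPKM, the number of fragments divided by transcript length and by the mapped reads of the library, and differences as BSAT minus OAT on the log2(FPKM + 0.1) scale, which understates the change of weakly expressed genes. Of 17632 gene models tested with the animal as a block in limma, 38 were higher in BSAT (0.216% of those tested) and 27 were higher in OAT (0.153%) at an adjusted p (Benjamini-Hochberg) under 0.05. All 65 (0.369%) differed in the same direction in 6 of 6 animals, as did 4.0% of all gene models tested on the BSAT side and 10.7% on the OAT side. In 49 of the 65 the ranges of the 6 BSAT and the 6 OAT libraries did not overlap, against 2.81% of all gene models tested (0.777% higher in BSAT and 2.03% higher in OAT). Single animals weighed on the count: it fell to 6 without animal 2, and 5 of the 65 (TBX15, HOXA9, SELE, BMPER and HAS1) were called whichever animal was left out. With the animal and all 36 libraries in 1 fit, which estimates the spread from all 6 depots, 9.41% of gene models were called. At an unadjusted p under 0.05, 1078 gene models were higher in BSAT (6.11%) and 1995 were higher in OAT (11.3%), and the median difference over all gene models was -0.15. After quantile normalization this split turned to 1426 higher in BSAT and 1074 higher in OAT, with a median of -0.05. The 65 called gene models kept their direction there. With an unadjusted p under 0.05 and a log2 difference of at least 1.5 in size, 2.04% of gene models passed, 1.09% higher in BSAT and 0.947% higher in OAT.

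**Figure D1:**
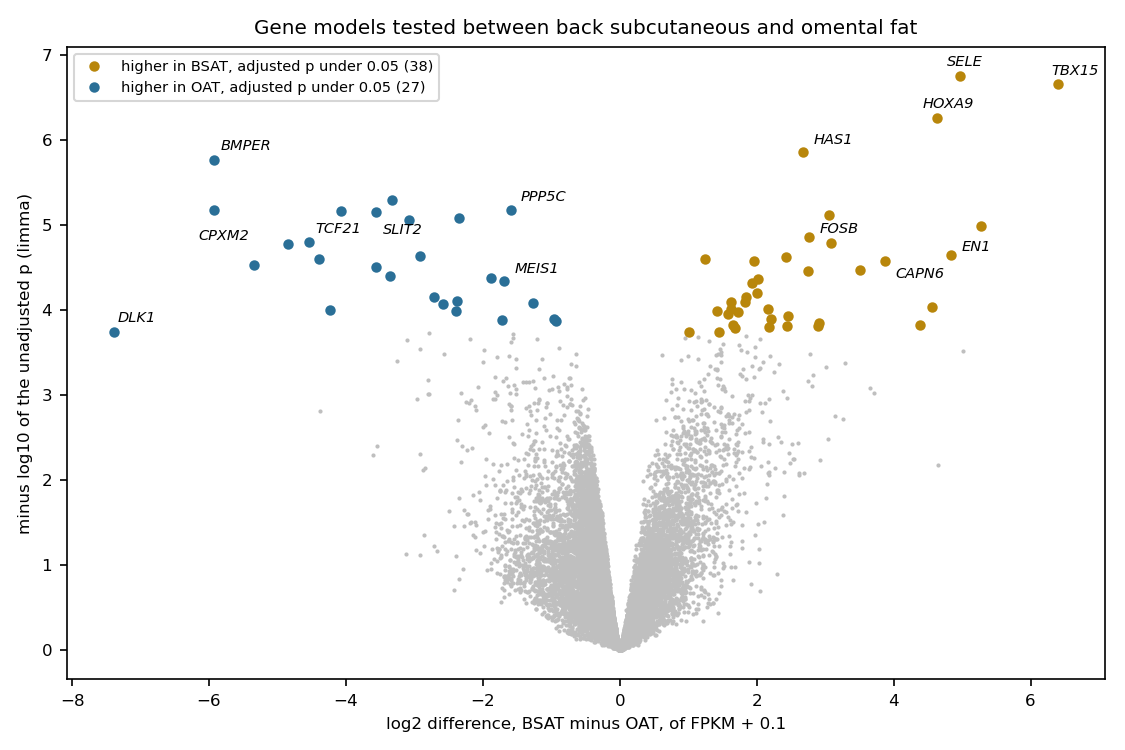
Difference between the depots (horizontal axis, log2, BSAT minus OAT) against minus log10 of the unadjusted p from limma (vertical axis) for the 17632 gene models tested. Brown points are the 38 gene models higher in BSAT and blue points the 27 higher in OAT at an adjusted p under 0.05, and the names mark genes described in the text.

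Several libraries stood apart. OAT 1 and OAT 4 were rich in lymphocyte transcripts and poor in adipocyte ones: the 25 T cell markers summed to 1648 and 3730 FPKM there against 62.3 to 311.6 in the other OAT libraries and 83.5 to 447 in BSAT. The 31 adipocyte genes summed to 765.7 and 1156 FPKM in OAT 1 and OAT 4, against 8249 to 11550 in the other 4 OAT libraries and 3137 to 8583 in BSAT. OAT 1 also had the highest sum of mesothelial genes, 2034 FPKM against 600.4 to 995 in the other OAT libraries. BSAT 1 carried skeletal muscle transcripts, with 2802 FPKM over 26 genes against 69.3 to 147.6 in the other 11 libraries. BSAT 3 had the highest sum of immediate early and stress genes (32050 FPKM against 7949 to 14130) and the lowest sum of collagen chains within BSAT (18590 FPKM against 90590 to 174600). In bulk tissue, fewer cells of a type and less RNA per cell cannot be told apart. Without animals 1 and 4, a fit on 4 animals called 142 gene models (0.818% of 17370), 45 higher in BSAT and 97 higher in OAT, of which 43 were among the 65.

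**Figure D2:**
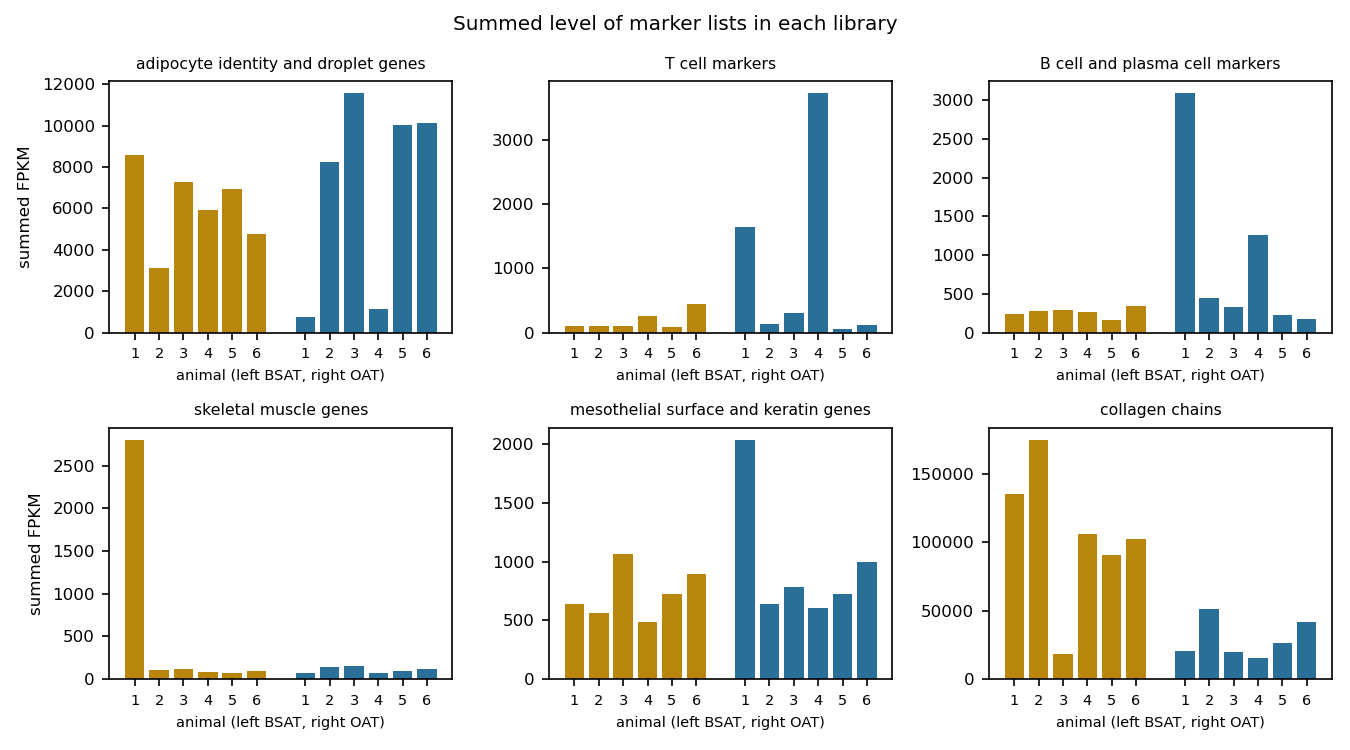
Summed FPKM of 6 marker lists (vertical axes) in each of the 12 libraries, by animal number (horizontal axes), with BSAT in brown and OAT in blue. OAT 1 and OAT 4 have the lowest adipocyte sums and the highest T cell and B cell sums, BSAT 1 the highest skeletal muscle sum, and BSAT 3 the lowest collagen sum within BSAT.

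Genes that specify the body wall, limb and trunk stood out on the BSAT side. Their list, like the others, was written with earlier results of these data known, so its counts are descriptions only. TBX15, a T-box factor of body wall and limb mesenchyme, ranged from 62.65 to 84.61 FPKM in BSAT with a median of 78.1. In OAT it ranged from 0.297 to 2.35 FPKM with a median of 0.889. The groups lie far apart, with means of 76.2 ± 8.66 FPKM in BSAT and 0.966 ± 0.727 in OAT (SD, n = 6 each), and the difference was 6.40 ± 0.34 (SE) on the log2 scale (limma, adjusted p = 0.00195). TBX15 was called under each of the 16 alternative settings, and BMPER, HOXA9 and SELE under each of the 15 that tested them.

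EN1, the engrailed homeobox factor that marks the central dermomyotome and dorsal dermis in the mouse, ranged from 14.75 to 27.96 FPKM in BSAT (median 20.9) and from 0.128 to 2.91 in OAT (median 0.7001). The lowest BSAT library was above the highest OAT library, and the difference was 4.84 ± 0.50 (adjusted p = 0.0189). EMX2, a homeobox factor known for its part in forebrain, urogenital tract and shoulder blade formation, ranged from 17.3 to 34.6 FPKM in BSAT (median 24.6) and from 0 to 5.46 in OAT (median 1.13), a difference of 4.56 ± 0.58 (adjusted p = 0.0381, and 0.0597 without animals 1 and 4). TWIST1, a basic helix-loop-helix factor of mesenchyme, was at 4.67 to 6.70 FPKM in BSAT and 0.875 to 2.28 in OAT (difference 1.84 ± 0.23, adjusted p = 0.0337). IRX2, an Iroquois homeobox factor, was near the limit of the scale in both depots, with medians of 0.631 FPKM in BSAT and 0.00648 in OAT, and rose by 2.44 ± 0.34 (adjusted p = 0.0455). PRRX1, which marks limb bud and body wall mesenchyme in the mouse, had medians of 71.2 FPKM in BSAT and 14.1 in OAT without overlap. Its main gene model missed the threshold (2.19 ± 0.35, adjusted p = 0.0628), while a second, weaker gene model of the same symbol passed it (1.96 ± 0.21, adjusted p = 0.0189).

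Over the whole list of 32 tested factors of somite, body wall and limb, 5 rose in BSAT and 0 in OAT at the adjusted threshold. At an unadjusted p under 0.05, 19 were higher in BSAT (59.4%, against 6.11% of all gene models) and 2 in OAT (6.25%, against 11.3%). The median difference was 0.99 against -0.15 over all gene models. The median was above 0 in each of the 6 animals. Leaving out animals 1 and 4 gave counts of 16 and 5 and a median of 0.77.

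The HOX genes, whose order along the chromosome follows the head-to-tail axis, were led by posterior members of the A cluster. HOXA9 was at 2.36 to 5.32 FPKM in BSAT (median 3.87) and at 0 to 0.311 in OAT (median 0.0306). No library overlapped, and the difference of 4.62 ± 0.28 (adjusted p = 0.00331) held its call when any single animal was left out. HOXA10 was at 0.297 to 2.33 FPKM in BSAT and listed at 0 in all 6 OAT libraries (adjusted p = 0.021), so no fold is given. HOXC9 had a median of 15.8 FPKM in BSAT and 1.54 in OAT without overlap but missed the threshold (3.72 ± 0.69, adjusted p = 0.0923). Of the 23 HOX genes tested, 2 rose in BSAT and 0 in OAT, with a median of 0.70. At an unadjusted p under 0.05 the counts were 12 (52.2%, against 6.11% of all gene models) and 0 (against 11.3%). The anterior members were not alike. HOXB3, with medians of 26.3 FPKM in BSAT and 30.4 in OAT, differed by 0.06 ± 0.33 (adjusted p = 0.919). HOXD4, HOXD3 and HOXA2 were among those higher in BSAT at an unadjusted p under 0.05. They differed by 1.28, 0.85 and 0.67 (limma, adjusted p = 0.19, 0.177 and 0.279). In the 4 animals other than 1 and 4, 10 HOX genes were higher in BSAT and 6 in OAT at an unadjusted p under 0.05. These are 43.5% and 26.1%, against 6.0% and 14.7% of all gene models, and the median dropped to 0.27.

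**Figure D3:**
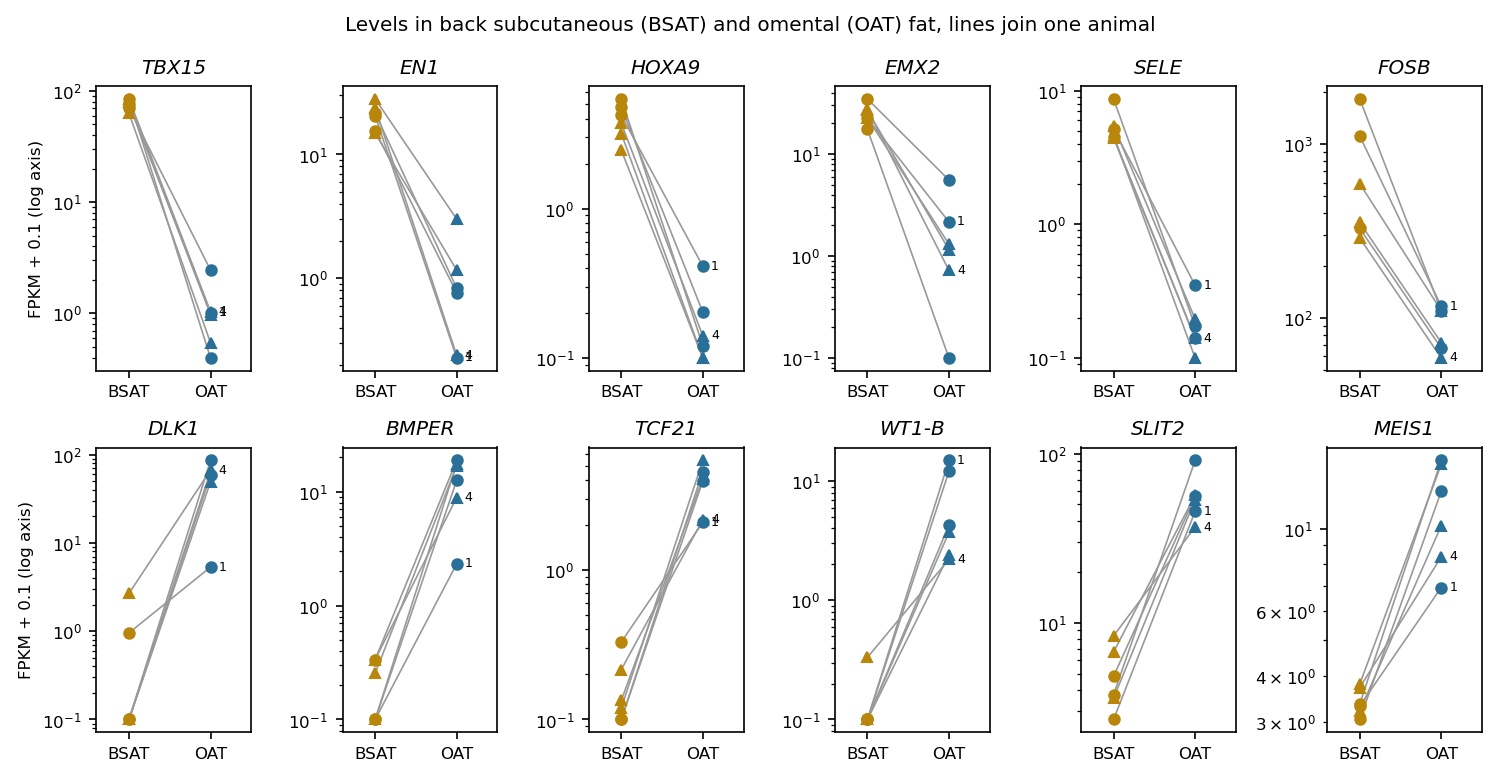
FPKM + 0.1 (vertical axes, log scale) of 12 genes in BSAT (brown) and OAT (blue), with a line joining the libraries of each animal. Circles are males (animals 1 to 3), triangles are females (animals 4 to 6), and the OAT libraries of animals 1 and 4 are numbered. None of the 12 genes overlaps between the depots, and OAT 1 is the lowest OAT library for DLK1, BMPER and MEIS1.

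Among the genes that rose in OAT were WT1, TCF21 and MEIS1, 3 members of the list of factors of visceral mesenchyme and mesothelium. MEIS1 is not confined to visceral fat. WT1, the zinc finger factor of mesothelium, kidney and gonad that marks visceral fat progenitors in the mouse, was represented by 4 called gene models numbered 552 to 556 on chromosome 16. The model with the symbol WT1-B was at 2.11 to 14.8 FPKM in OAT (median 3.89), and in BSAT it was listed at 0 in 5 libraries and at 0.231 in BSAT 4 (difference -5.35 ± 0.58, adjusted p = 0.0202). The model with the symbol WT1 had medians of 0.852 FPKM in OAT and 0.0150 in BSAT (-3.35 ± 0.38, adjusted p = 0.0234). The other 2 carry no symbol, and the stronger of them was at 1.78 to 26.4 FPKM in OAT and listed at 0 in every BSAT library. Since these models neighbour each other and may share reads, they are not independent.

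TCF21, a factor of visceral mesoderm in lung, kidney and epicardium, was at 1.98 to 5.31 FPKM in OAT (median 3.92) and at 0 to 0.230 in BSAT (median 0.0268). The difference was -4.54 ± 0.44 (adjusted p = 0.0164). MEIS1, a homeodomain partner of HOX proteins, was present in both depots, at 6.83 to 15.2 FPKM in OAT and within the narrow range of 2.95 to 3.70 in BSAT (-1.69 ± 0.19, adjusted p = 0.0245). BARX1, a homeobox factor of stomach mesenchyme, was at 0.435 to 4.15 FPKM in OAT and 0.0689 to 0.271 in BSAT without overlap. It missed the threshold with all 6 animals (-3.26 ± 0.53, adjusted p = 0.0667) and passed it without animals 1 and 4 (-4.09, adjusted p = 0.00421). ISL1, a LIM-homeobox factor, had medians of 0.483 FPKM in OAT and 0 in BSAT (-2.07 ± 0.37, adjusted p = 0.0879).

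Of 22 tested factors of visceral mesenchyme and mesothelium, 3 rose in OAT (WT1, TCF21 and MEIS1) and 0 in BSAT. At an unadjusted p under 0.05, 9 were higher in OAT (40.9%, against 11.3% of all gene models) and 4 in BSAT (18.2%, against 6.11%), with a median of -0.26. Of 22 tested surface and keratin genes of mesothelial cells, 0 rose in OAT and 1 rose in BSAT. At an unadjusted p under 0.05, 2 were higher in each depot (9.09%). Of all gene models, 6.11% were higher in BSAT and 11.3% in OAT. Most members had a higher mean in OAT, where OAT 1 had the highest sum, while ANXA8, CLDN15 and HAS1 had a higher mean in BSAT. The 1 that rose was HAS1, which fibroblasts also express. MUC16, a mesothelial surface mucin, had a median of 0.0836 FPKM and a highest value of 44.5 in OAT, and KRT8, a simple epithelial keratin, a median of 5.60 and a highest value of 425. Their means were 7.63 and 77.6 FPKM in OAT and 0.00276 and 1.92 in BSAT. The median of the mesothelial list was -0.86, with -2.65 in animal 1 and -1.17 to 0.23 in the other 5 animals. The part of mesothelial content in the WT1 difference was not tested.

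DLK1, BMPER, SLIT2 and CPXM2 rose in OAT by large amounts as well. DLK1, a transmembrane and secreted Notch-family protein that holds back preadipocyte differentiation, was at 5.22 to 85.8 FPKM in OAT (median 61.7) and listed at 0 in 4 of the 6 BSAT libraries, with a highest value of 2.58. Its difference of -7.39 ± 1.05 had the largest size of all called genes and the weakest call (adjusted p = 0.0497). The BSAT values above 0 were those of animals 1 and 4 (0.857 and 2.58 FPKM), and OAT 1 lay far below the other OAT libraries. Without animals 1 and 4 every BSAT library is listed at 0, so no difference is given for that fit. BMPER, a secreted protein that binds bone morphogenetic proteins (BMPs), was at 2.23 to 18.7 FPKM in OAT (median 14.6) and at 0 to 0.236 in BSAT (median 0.0770). The difference of -5.92 ± 0.42 (adjusted p = 0.0061) was called under every single-animal removal. SLIT2, a guidance ligand of ROBO receptors that mouse adipocytes are known to secrete, was at 36.6 to 90.9 FPKM in OAT and 2.57 to 8.25 in BSAT (-3.56 ± 0.31, adjusted p = 0.012). CPXM2, a member of the carboxypeptidase family, was at 16.6 to 150.8 FPKM in OAT and 1.23 to 8.57 in BSAT (-4.85 ± 0.48, adjusted p = 0.0164).

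Further genes that rose in OAT had medians as follows, first OAT and then BSAT. PTK7, a planar polarity receptor, had 8.98 and 2.02 FPKM, and ADAM12, a membrane metalloprotease of mesenchymal cells, 39.4 and 9.23. CCND2, a D-type cyclin, had 15.1 and 5.37 FPKM, and LGALS12, an adipocyte galectin on lipid droplets, 4.24 and 1.34. The ranges of PTK7 and ADAM12 did not overlap, while those of CCND2 and LGALS12 did. PPP5C, a serine/threonine phosphatase, was the most abundant of the genes that rose in OAT, with medians of 258.9 and 71.4 FPKM (-1.60 ± 0.14, adjusted p = 0.012), although the ranges of the groups overlapped. TMEM132C, ASXL3 and CDR1 differed by -4.40 ± 0.46, -2.71 ± 0.33 and -4.08 ± 0.35 (adjusted p = 0.0189, 0.0337 and 0.012). No source says that fragments were counted by strand, so reads from CDR1 and from its antisense transcript cannot be told apart.

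Within the BMP pathway, in which secreted antagonists keep ligands from their receptors, genes of like function differed in opposite directions. CHRD (chordin), an antagonist that binds BMP2 and BMP4, was at 12.2 to 22.5 FPKM in BSAT and 4.74 to 10.7 in OAT (1.25 ± 0.13, adjusted p = 0.0189), opposite to BMPER. BMP5, a ligand, had medians of 7.22 FPKM in BSAT and 1.34 in OAT without overlap and missed the threshold (2.38 ± 0.44, adjusted p = 0.0897). Of 41 tested genes of the BMP and TGF-beta pathway, 1 rose in each depot. At an unadjusted p under 0.05, 8 were higher in BSAT (19.5%, against 6.11% of all gene models) and 3 in OAT (7.32%, against 11.3%). Without animals 1 and 4 these counts were 7 (17.1%, against 6.0%) and 4 (9.76%, against 14.7%). The list median went from 0.22 with all animals to -0.004 in that fit. In the WNT pathway 0 of 41 genes passed in either direction with all animals. At an unadjusted p under 0.05, 5 were higher in BSAT (12.2%, against 6.11% of all gene models) and 6 in OAT (14.6%, against 11.3%). WNT2, a ligand, had medians of 83.8 FPKM in BSAT and 12.7 in OAT (2.45 ± 0.46, adjusted p = 0.0975). IGF1, a growth factor also made by adipose tissue, was at 31.0 to 109 FPKM in BSAT and 167 to 374 in OAT without overlap (-1.86 ± 0.36, adjusted p = 0.0975), and LAMA1, a laminin chain of basement membranes, had medians of 0.259 FPKM in BSAT and 9.85 in OAT (-4.38 ± 0.89, adjusted p = 0.106). Without animals 1 and 4 LAMA1 passed the threshold (-5.95, adjusted p = 0.00517) and IGF1 did not (-2.25, adjusted p = 0.0617).

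FOS and FOSB, 2 of 38 immediate early and stress genes tested, rose in BSAT, as did HAS1, TNFAIP6 and SELE. FOSB and FOS encode subunits of the AP-1 factor and are transcribed within minutes of handling, warming or other stress. FOSB was at 288 to 1820 FPKM in BSAT (median 472.9) and 58.6 to 116 in OAT (median 91.0), a difference of 2.77 ± 0.27 (adjusted p = 0.0163). FOS was at 109 to 619 FPKM in BSAT (median 189.9) and 26.4 to 96.96 in OAT (median 49.3), a difference of 2.18 ± 0.30 (adjusted p = 0.0459, and 0.0665 without animals 1 and 4). JUNB and EGR1 had no overlap between the groups but missed the threshold, with differences of 1.88 ± 0.38 (adjusted p = 0.105) and 1.70 ± 0.38 (adjusted p = 0.137). Over the 38 immediate early and stress genes tested, 2 rose in BSAT and 0 in OAT, and the median was 0.59, above 0 in 6 of 6 animals. At an unadjusted p under 0.05, 18 were higher in BSAT (47.4%, against 6.11% of all gene models) and 4 in OAT (10.5%, near the 11.3% of all gene models). The 4 on the OAT side (HSPA1A, HSP90AA1, HSPD1 and HSPE1) encode heat shock chaperones, such as HSPD1 of the mitochondrion, at 431 to 670 FPKM in OAT and 293 to 405 in BSAT (-0.68 ± 0.14, adjusted p = 0.118). The time between slaughter and sampling of each depot was not analysed here, and its part in these values was not tested.

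HAS1, a hyaluronan synthase at the cell membrane, was at 10.8 to 50.8 FPKM in BSAT (median 27.3) and 1.60 to 7.27 in OAT (median 3.41). The groups did not overlap and the difference was 2.67 ± 0.18 (adjusted p = 0.0061), called under every single-animal removal. TNFAIP6, which binds hyaluronan and cross-links its chains in inflamed tissue, was at 15.8 to 41.0 FPKM in BSAT and 1.68 to 7.75 in OAT (2.75 ± 0.30, adjusted p = 0.021). SELE, the E-selectin of activated endothelium on which leukocytes roll, was at 4.32 to 8.56 FPKM in BSAT (median 4.80) and 0 to 0.250 in OAT (median 0.0571). Its difference of 4.97 ± 0.26 (adjusted p = 0.00195) was also called under every single-animal removal. SELP, the P-selectin of endothelium and platelets, had medians of 4.30 and 1.80 FPKM and did not pass (1.41 ± 0.43, adjusted p = 0.208). Of 29 endothelial and pericyte genes SELE was the 1 that passed. The list median of 0.56 came with medians of 2.45 and 1.17 in animals 1 and 4 and of -0.13 to 0.56 in the other 4, and it was 0.02 without animals 1 and 4.

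Among the remaining large rises in BSAT, CAPN6, a calpain without protease activity that binds microtubules, was at 20.3 to 59.1 FPKM in BSAT and 1.72 to 6.03 in OAT (3.87 ± 0.41, adjusted p = 0.0189, and 0.0553 without animals 1 and 4). TRPC4, a cation channel, was at 7.96 to 10.4 FPKM in BSAT and 0.417 to 4.82 in OAT (2.89 ± 0.40, adjusted p = 0.0455). CRB1, a polarity protein best known from the retina, spread from 0.612 to 30.2 FPKM in BSAT and from 0.0588 to 0.648 in OAT, so the groups just overlapped (4.38 ± 0.60, adjusted p = 0.0455). C1QTNF1, a secreted paralog of adiponectin, had medians of 105.7 FPKM in BSAT and 18.1 in OAT (2.17 ± 0.28, adjusted p = 0.0381). ANGPTL5, an angiopoietin-like secreted protein, and NXPH2, a neurexophilin, rose by 3.08 ± 0.30 and 2.91 ± 0.40 (adjusted p = 0.0164 and 0.0454).

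The summed collagen chains were higher in 5 BSAT libraries than in any OAT library, but the spread within BSAT was wide. COL1A1, the main chain of type I collagen, was at 5252 to 83880 FPKM in BSAT (median 45220) and 4963 to 18900 in OAT (median 6642). It was higher in BSAT in 6 of 6 animals, yet BSAT 3 lay within the OAT range and the difference of 2.13 ± 0.41 missed the threshold (adjusted p = 0.0989). After quantile normalization, which gives the highest gene models of each library the same values, it was 0.30. COL3A1, of type III collagen, differed by 1.37 ± 0.48 (adjusted p = 0.24). COL21A1, a minor fibril-associated collagen, was at 3.34 to 8.16 FPKM in BSAT and 1.45 to 2.65 in OAT without overlap (1.47 ± 0.23, adjusted p = 0.0627). Of 35 collagen chains 0 passed the adjusted threshold. At an unadjusted p under 0.05, 14 were higher in BSAT (40.0%, against 6.11% of all gene models) and 6 in OAT (17.1%, against 11.3%). The list median was 0.30, and 0.01 without animals 1 and 4. Of 22 matrix proteoglycans 0 passed. At an unadjusted p under 0.05, 6 were higher in BSAT (27.3%, against 6.11% of all gene models) and 0 in OAT (against 11.3%). Without animals 1 and 4, 4 of 20 were higher in each depot (20.0%, against 6.0% and 14.7% of all gene models). In that fit 1 passed the adjusted threshold, higher in OAT. Among the proteoglycans, VCAN (versican) and FMOD (fibromodulin) differed with all animals by 1.18 ± 0.23 (adjusted p = 0.0989) and 1.21 ± 0.49 (adjusted p = 0.278). MATN4, a matrilin that links matrix networks, rose in BSAT by 1.82 ± 0.23 (adjusted p = 0.0352, and 0.0577 without animals 1 and 4), and was the 1 of 43 elastic fibre and matricellular genes that passed.

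Of 23 tested markers of adipose progenitors and fibroblasts, DLK1 was the 1 that passed. At an unadjusted p under 0.05, 9 were higher in BSAT (39.1%, against 6.11% of all gene models) and 2 in OAT (8.7%, against 11.3%). The median of 0.52 fell to 0.00 without animals 1 and 4. THY1, a surface protein of fibroblasts, had medians of 286 FPKM in BSAT and 93.7 in OAT (1.30 ± 0.25, adjusted p = 0.0994).

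The values of adipocyte and lipid genes depended on OAT 1 and OAT 4. These libraries were set apart by low adipocyte and high T cell sums. Leaving out animals 1 and 4 therefore moves adipocyte genes toward OAT by construction, and that fit is no independent test of them. LGALS12 was the 1 of 31 adipocyte identity and droplet genes that passed, and the list median was 0.35. By animal, that median was 3.67 and 1.98 in animals 1 and 4 and -1.11 to -0.35 in the other 4. Without animals 1 and 4, 21 of the 31 were higher in OAT and 1 in BSAT at an unadjusted p under 0.05, against 14.7% and 6.0% of all gene models in that fit, and the median was -0.66. GPAM, the enzyme of the first step of glycerolipid synthesis, was at 158 to 893 FPKM in BSAT and 123 to 4775 in OAT. With all animals it differed by -1.31 ± 0.76 (adjusted p = 0.37), and without animals 1 and 4 by -2.70 (adjusted p = 0.0204). GPD1, which supplies glycerol 3-phosphate, went from -0.46 ± 0.70 (adjusted p = 0.703) to -1.71 (adjusted p = 0.0388). ADIPOQ, the adipokine adiponectin, went from 0.18 ± 1.04 (adjusted p = 0.924) to -1.69 (adjusted p = 0.105), LIPE, hormone-sensitive lipase, from 0.83 ± 0.91 (adjusted p = 0.597) to -0.82 (adjusted p = 0.13), and PLIN4, a droplet coat protein, from 1.22 ± 0.94 (adjusted p = 0.471) to -0.50 (adjusted p = 0.159).

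None of the members of the 6 lists in this paragraph passed the adjusted threshold with all animals. At an unadjusted p under 0.05, 9 of 31 genes of fatty acid synthesis, 2 of 22 of triglyceride assembly, 4 of 25 of lipolysis and adrenergic control, 3 of 26 of fatty acid oxidation and 6 of 33 of pyruvate metabolism and the citrate cycle were higher in OAT, against 11.3% of all gene models. The shares for triglyceride assembly (9.09%) and fatty acid oxidation (11.5%) were near that background. After quantile normalization with all animals these counts were 7, 2, 3, 0 and 0, against 1074 of all 17632 gene models, and the median of the fatty acid synthesis list turned from -0.10 to 0.04. Without animals 1 and 4 the 5 counts were 16, 10, 13, 19 and 20, against 14.7% of all gene models, and the medians lay between -0.57 and -0.40. Since animals 1 and 4 were set apart by low adipocyte sums in OAT, these counts are not independent of that choice. The 58 respiratory chain subunits changed least between the fits, with 16 higher in OAT and 0 in BSAT and a median of -0.31 with all animals, and 15 and 0 with a median of -0.27 without animals 1 and 4. Their sums were highest in OAT 4 (4073 FPKM) and OAT 1 (3285), against 1851 to 2435 in the other OAT libraries and 1452 to 2083 in BSAT. Their median was below 0 in 6 of 6 animals, as was the median of all gene models (-0.229 to -0.005). After quantile normalization the list median was -0.18, with 5 of the 58 genes higher in OAT, against 1074 of all 17632 gene models. ATP5F1C, the gamma subunit of ATP synthase, was at 130 to 161 FPKM in BSAT and 172 to 230 in OAT without overlap (-0.41 ± 0.12, adjusted p = 0.189). CPT2, the carnitine transferase of the inner mitochondrial membrane, was at 75.1 to 93.8 FPKM in BSAT and 96.6 to 129 in OAT without overlap (-0.39 ± 0.11, adjusted p = 0.182). PRKAR2B, the regulatory subunit of protein kinase A most abundant in fat, was at 6.76 to 19.9 FPKM in BSAT and 25.3 to 72.5 in OAT (-1.37 ± 0.24, adjusted p = 0.0838), and ADRB1, a beta-adrenergic receptor, had medians of 3.27 and 9.52 FPKM (-1.14 ± 0.18, adjusted p = 0.0651). LDHB, the heart-type subunit of lactate dehydrogenase, differed by -0.49 ± 0.26 (adjusted p = 0.342) and HADHA, the alpha subunit of the trifunctional protein of fatty acid oxidation, by -0.23 ± 0.35 (adjusted p = 0.707). UCP1, the uncoupling protein of brown fat, was at 0.00374 to 0.0731 FPKM in BSAT and 0.00638 to 1.66 in OAT (-1.04 ± 0.49, adjusted p = 0.309), and PRDM16, a regulator of brown fat fate, had medians of 6.56 and 11.6 FPKM (-0.45 ± 0.34, adjusted p = 0.469).

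**Figure D4:**
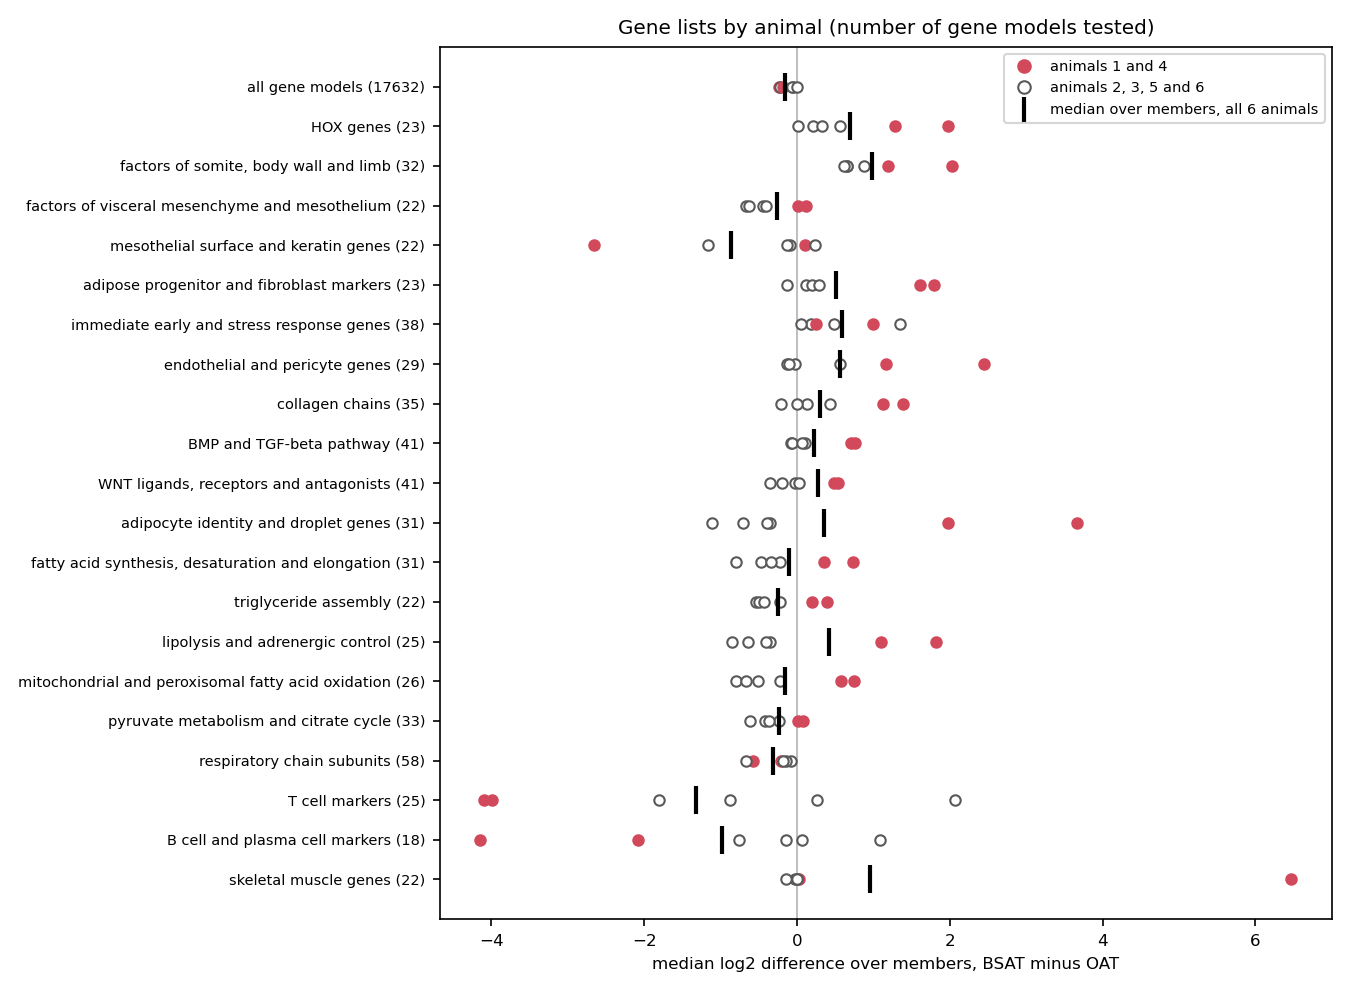
Median log2 difference, BSAT minus OAT, over the members of each gene list (horizontal axis), by animal (points) and as fitted over all 6 animals (black bar). Filled points are animals 1 and 4, which lie to the right of the other 4 for the adipocyte, lipid and endothelial lists and to the left for the T cell and B cell lists.

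Lymphocyte genes showed large values and no call. Of 25 T cell markers 0 passed. At an unadjusted p under 0.05, 1 was higher in OAT (4.0%, against 11.3% of all gene models). CD3D, a chain of the T cell receptor complex, had medians of 14.1 FPKM in BSAT and 51.5 in OAT, with a highest value of 1117 in OAT (-1.70 ± 1.00, adjusted p = 0.377). The T cell list median was -4.10 and -3.99 in animals 1 and 4, -1.81 and -0.87 in animals 3 and 2, and 0.26 and 2.06 in animals 5 and 6. Of 18 B cell and plasma cell markers 0 passed, and the median of -0.98 became 0.28 without animals 1 and 4. Since these animals were set apart by lymphocyte transcripts as well, that change is not independent of the choice. The 22 skeletal muscle genes tested also had 0 calls, with a median of 6.47 in animal 1 and -0.15 to 0.03 in the other 5 animals.

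The difference between the depots was not shown to depend on sex, or on breed as labelled. Comparing the within-animal differences of 3 females with those of 3 males, limma called 0 of 17632 gene models, with 228 at an unadjusted p under 0.05 and a smallest adjusted p of 1.0. The count was 0 under the other pseudocounts and quantile normalization as well, with 214 to 234 at an unadjusted p under 0.05.

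The other 4 depots show which of these differences are shared by fat of the same class. In a fit over all 36 libraries, the BSAT minus OAT difference was set against the difference of SSAT and IAT from PCAT and PRAT, which share no libraries with it, and 30 gene models differed (0.17% of 17632). TBX15 was about level in the 3 subcutaneous depots, with means of 76.2 ± 8.66 FPKM in BSAT, 74.3 ± 26.9 in SSAT and 65.2 ± 21.3 in IAT (SD, n = 6 each) and overlapping ranges. Among the visceral depots it was at 28.1 ± 6.00 FPKM in PCAT, 1.65 ± 1.14 in PRAT and 0.966 ± 0.727 in OAT, where PRAT and OAT overlapped and PCAT lay above both. EN1 was highest in SSAT (40.3 ± 5.32 FPKM), above the range of BSAT (20.6 ± 5.00), followed by IAT (10.8 ± 4.64), PRAT (10.2 ± 6.85) and PCAT (5.25 ± 3.34), whose ranges overlapped each other and that of OAT (0.940 ± 1.03). HOXA9 split the visceral depots. It was at 3.86 ± 1.08 FPKM in BSAT, 3.91 ± 1.00 in IAT, 3.55 ± 1.14 in PRAT and 2.71 ± 1.46 in SSAT, whose ranges overlapped, and at 0.0791 ± 0.120 in OAT and 0.0813 ± 0.0440 in PCAT. The BSAT minus OAT difference exceeded that of the other depots by 2.97 ± 0.48 for TBX15 (adjusted p = 0.0011), 3.11 ± 0.57 for EN1 (adjusted p = 0.00744) and 2.60 ± 0.32 for HOXA9 (adjusted p = 4.11e-05).

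Some genes set 1 of the depots apart from its own class. ZIC1 and ZIC4, a neighbouring pair of zinc finger factors known from the dorsal neural tube and somites, had means of 0.829 ± 0.913 and 0.359 ± 0.230 FPKM in BSAT. ZIC1 was listed at 0 in all 30 libraries of the other 5 depots, and ZIC4 in all but 1 SSAT library at 0.0236. Against the mean of SSAT and IAT, where 17 gene models were called (0.0964%), ZIC1 and ZIC4 rose in BSAT (adjusted p = 0.000928 and 2.42e-08), and against OAT alone they missed the threshold (adjusted p = 0.155 and 0.0528). The differences themselves were of like size in both comparisons. The first takes its spread from all 36 libraries, including depots listed at 0, so its smaller p does not mean a larger difference. BMPER had a lower mean in BSAT (0.104 ± 0.118 FPKM) than in SSAT (5.19 ± 4.15) and IAT (0.482 ± 0.346). Its difference from the mean of SSAT and IAT was -2.98 ± 0.48 (adjusted p = 0.00464). Its ranges in BSAT (0 to 0.236 FPKM) and IAT (0.153 to 0.971) overlapped, while SSAT (1.39 to 11.25) lay above both. That contrast therefore does not set BSAT apart from IAT.

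OAT differed from the mean of PCAT and PRAT in 53 gene models (0.301%). Such a call can come from 1 of these depots alone, as for TBX15 (high in PCAT) and HOXA9 (high in PRAT). SLIT2 was at 56.4 ± 18.5 FPKM in OAT and at 14.6 ± 7.06 in PCAT and 13.9 ± 4.85 in PRAT, and the range of OAT lay above those of all other depots (OAT against PCAT and PRAT 2.02 ± 0.31, adjusted p = 0.000552). BARX1 was at 2.65 ± 1.45 FPKM in OAT and at means of 0.142 to 0.316 in the other 5 depots (2.84 ± 0.30, adjusted p = 2.9e-06), and ISL1 at 0.639 ± 0.529 FPKM in OAT and 0.0597 or less in the others (2.37 ± 0.30, adjusted p = 3e-05). MEIS1 was higher in OAT than the mean of PCAT and PRAT by 0.94 ± 0.20 (adjusted p = 0.0329), although the ranges of OAT and PRAT overlapped. Its mean in PCAT (4.63 FPKM) lay between those of the subcutaneous depots SSAT (5.03) and IAT (4.51). CAPN6 was lower in OAT (3.31 ± 2.01 FPKM) than in PCAT (56.8 ± 28.4) and PRAT (26.5 ± 15.2), with a difference of -3.47 ± 0.44 (adjusted p = 3.88e-05), and the PCAT mean was above that of BSAT (46.1 ± 14.3). TCF21 was at 1.98 to 5.31 FPKM in OAT, below its range of 9.51 to 21.9 in PCAT, and overlapped PRAT at 0.0596 to 3.51, so its contrast with the mean of both (0.01 ± 0.36, adjusted p = 0.996) averages opposite differences. WT1-B overlapped between OAT and PCAT, with means of 6.49 ± 5.46 and 6.33 ± 7.56 FPKM, and lay at 0.405 to 2.09 in PRAT, just below its lowest OAT value of 2.11. These contrasts use the same BSAT or OAT libraries as the main comparison. They take the spread from all 36 libraries, so their adjusted p values are not comparable with those of the main comparison.

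**Figure D5:**
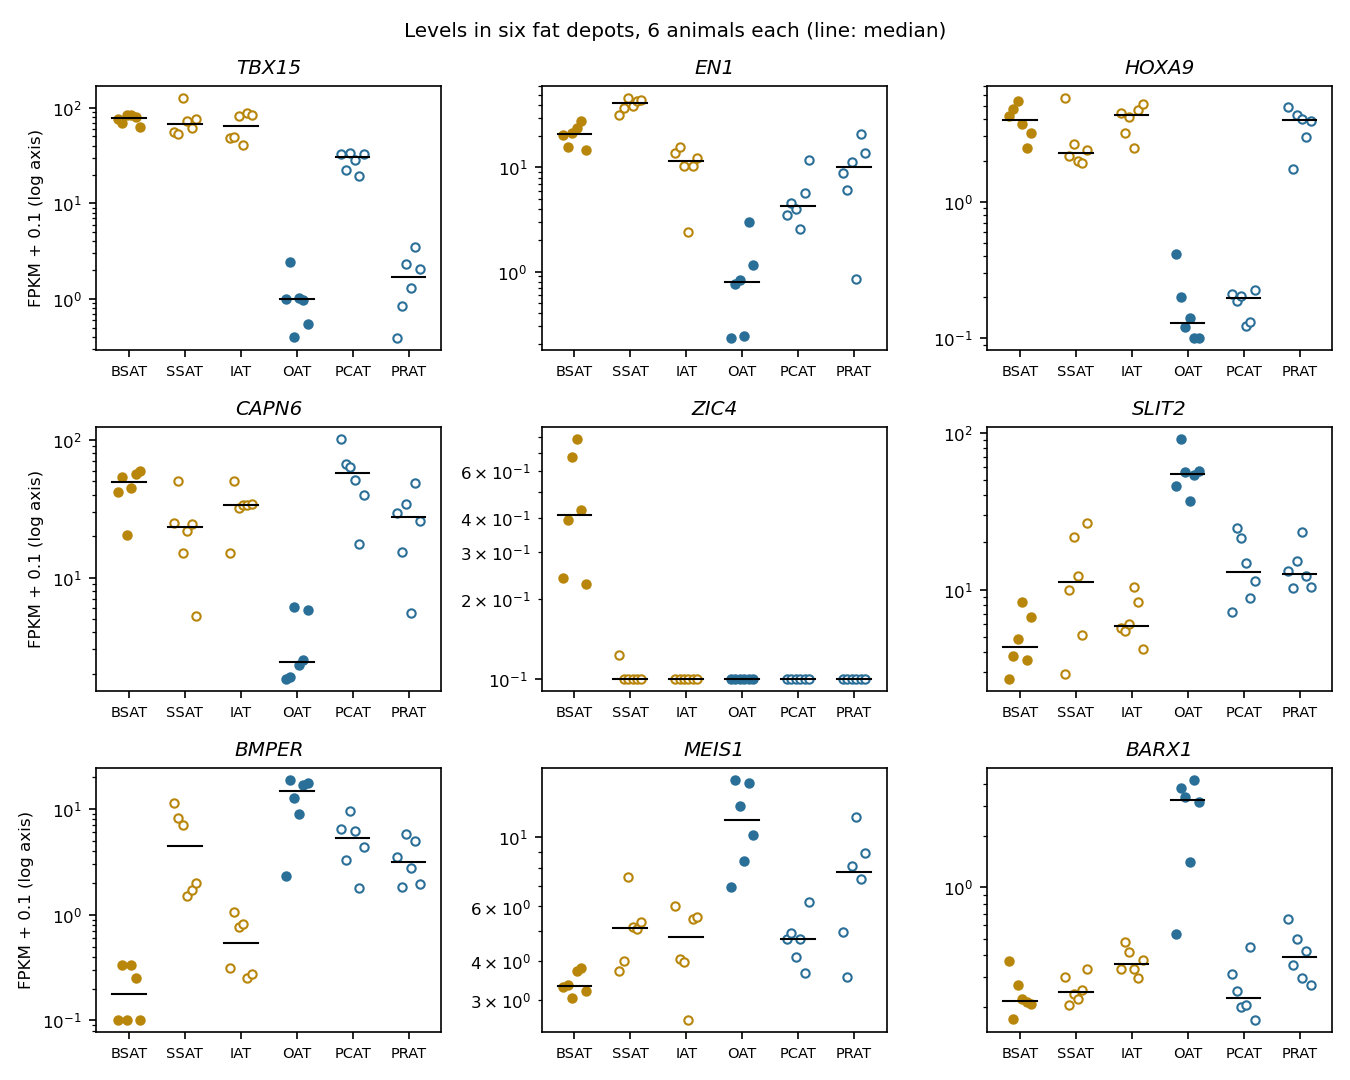
FPKM + 0.1 (vertical axes, log scale) of 9 genes in the 36 libraries by depot, with subcutaneous depots in brown and visceral depots in blue, filled points for BSAT and OAT and a line at the median of 6 animals. ZIC4 is above 0 in every BSAT library, BARX1 and SLIT2 are highest in OAT, and CAPN6 has its lowest mean in OAT.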

How the data were processed

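RNA was measured in 36 adipose libraries, of which the 6 BSAT and 6 OAT libraries were compared. The authors deposited FPKM values, made with HISAT2 2.2.1 and StringTie 2.1.4 on their own buffalo genome. The labels name a TruSeq kit and the methods an rRNA-depleted library. Read numbers per gene were not used, so no counting interval was computed. FPKM sums were 813944 to 888101 per library. Of 23032 gene models, 6773 carried no symbol, and among several models of 1 symbol the one with the highest mean was taken. Symbols are written in capitals.

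Gene models with a mean above 0.1 FPKM over the 12 libraries (17632) were tested on log2(FPKM + 0.1) with limma 3.58.1 in R 4.3.3 (variance trend, animal and depot as terms, two-sided), with Benjamini-Hochberg adjustment over all of them. Numbers pair libraries of 1 animal per the labels. Deviations from the depot means correlated by 0.13 on average within animals (-0.29 to 0.47) and by -0.03 between animals. The female and male differences were compared on 1 difference per animal, and contrasts with the other depots used all 36 libraries. Summaries used Python 3.11.15.

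Named genes were the 15 called rises and 15 called falls of greatest size that had a symbol, 1 sign in all 6 animals and an average of 1 FPKM or more. For each list, up to 6 members with the smallest p, 4 with the highest mean and the first 3 as written were eligible, as were genes named by the study. The second PRRX1 model and the WT1 models without a symbol were picked after their values were seen. Members and lists were chosen with earlier results of these data known. The lists were described by counts and medians only. Alternatives were pseudocounts of 0.01 and 1, no filter, a mean of at least 1 or 10 FPKM, TPM scaling, quantile normalization, no animal term, all 36 libraries, and leaving out animals.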

Additional observations from a re-analysis of the deposited data

Results flagged for a closer look

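For 30 gene models, of which the 12 described above are given here, the BSAT minus OAT difference departed from the difference between the other subcutaneous and the other visceral depots in limma at an adjusted p under 0.05. On the log2 scale the excess was 2.97 for TBX15, 3.11 for EN1, 2.60 for HOXA9, 2.03 for HOXA10, 2.47 for ZIC1, 2.02 for ZIC4 and 4.30 for CAPN6. It was -4.46 for BMPER, -2.82 for SLIT2, -1.41 for MEIS1, -3.22 for BARX1 and -1.97 for ISL1. HOXA10, ZIC1 and ZIC4 are listed at 0 in every OAT library, so their values depend on the pseudocount and are no folds.

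Some libraries stood far from the others of their depot by Dixon's test, which flags about 1 in 20 groups by chance. In BSAT 3, SELE was high at 8.56 FPKM, while CAPN6 (20.3), COL1A1 (5250) and COL3A1 (1780) were low. In OAT 1, DLK1 (5.22 FPKM), BMPER (2.23) and PRDM16 (2.41) were low, and FMOD (127) and WNT2 (38.5) were high. BSAT 4 was high for WT1-B (0.231 FPKM) and CPXM2 (8.57), PRKAR2B was low in BSAT 2 (6.76) and high in OAT 3 (72.5), and CPT2 was low in BSAT 1 (75.1). MUC16 was above 0 in BSAT 2 alone among the BSAT libraries (0.0166 FPKM).

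For the gene lists, the score of a library is the mean, over the members, of log2(FPKM + 0.1) less the mean of each gene over the 12 libraries. OAT 1 had a mesothelial score of 2.57, against -0.39 to 0.56 in the other OAT libraries. BSAT 1 had a skeletal muscle score of 4.63, against -0.57 to -0.39 in the other BSAT libraries. BSAT 3 had scores of 0.94 for endothelial and pericyte genes, -0.54 for collagen chains and -0.38 for WNT pathway genes, against 0.19 to 0.34, 0.11 to 0.43 and 0.00 to 0.16 in the other BSAT libraries.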

How the results depend on the processing

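All 65 called gene models kept their direction wherever the 16 alternative settings tested them, while the number of calls moved. Against 38 gene models higher in BSAT and 27 higher in OAT, there were 6 and 4 with no filter on low values, 7 and 4 at a mean of at least 10 FPKM, 30 and 16 at a pseudocount of 1, 45 and 97 without animals 1 and 4, and 192 and 167 at an unadjusted p under 0.05 with a log2 difference of at least 1.5 in size. With all 36 libraries, which adds 24 libraries to the estimate of the spread, there were 524 and 1136 (9.41% of gene models). Without the animal as a block there were 76 and 72, and 53 of the 65 were among them. Leaving out 1 animal at a time gave 4 to 28 higher in BSAT and 2 to 32 higher in OAT. The BSAT contrast with SSAT and IAT gave 30 calls after quantile normalization and 9 without the block, against 17. Of 36 called genes described above, 29 were still called without animals 1 and 4, 35 after quantile normalization, where DLK1 missed the threshold (adjusted p = 0.053), and 32 with all 36 libraries, where HAS1 did (adjusted p = 0.0582). With no filter 7 were still called, and with animals 1 to 6 left out in turn 27, 5, 9, 13, 5 and 6. Without animals 1 and 4 the log2 difference turned to -0.82 for LIPE, -1.69 for ADIPOQ, -0.50 for PLIN4, -0.52 for HOXB3, -1.63 for DGAT2 and -1.28 for FASN. With 1 animal left out it ran from -0.72 to 0.81 for ADIPOQ, from -0.76 to 0.71 for DGAT2, from -0.46 to 0.62 for FASN and from -0.21 to 0.23 for HOXB3. The cause was not tested. Animals 1 and 4 were set apart by sums that include LIPE, ADIPOQ and PLIN4. Differences between values under the pseudocount of 0.1 FPKM are compressed on the log2 scale used, and the depth per gene is unknown.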

Other observations

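Some called gene models lay near each other. Among 64 called models with a chromosome in their identifier, 15 fell into 6 runs in which neighbours were at most 3 model numbers apart. Besides the WT1 and HOXA runs these held C1QTNF1 on chromosome 3, SLIT2 on chromosome 8, ZSWIM4 on chromosome 9, and CDR1 with LDOC1 on chromosome X. In each run all members differed in the same direction, and whether neighbours share reads or are parts of 1 gene was not tested.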
